A study of Mus musculus with 5 samples.

Results

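Genes of prostaglandin synthesis, breakdown and signalling were read from a table of gene expression in sorted mouse oviduct stromal cells: Ptgs1, Ptgs2, Ptges, Ptgis, Ptgds, Hpgd, Ptger2, Ptger3, Ptger4 and Ptgfr. They were chosen by name, as a pathway, and are 10 of 23857 genes listed. All 10 were in the table and all 10 passed the filter on low values, as did 19292 genes in all. RNA was sequenced from YFP-positive cells of the fallopian tube (oviduct) of young adult female mice, with 1 library per mouse. The 2 control mice, numbered 2 and 3, were Pdgfra-Cre;R26Y. The 3 experimental mice, numbered 1, 2 and 3, were Pdgfra-Cre;Esr1(fl/fl);R26Y. All 5 mice thus carried the recombinase and the reporter, and only the experimental mice carried floxed Esr1, the gene of estrogen receptor alpha. Cre was driven by Pdgfra, a gene of mesenchymal cells, and the sort kept cells in which R26Y had been switched on. The sources give no hormone treatment or cycle stage for the mice.

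Prostaglandins are short-lived lipid signals made from arachidonic acid, which phospholipases release from membranes. The cyclooxygenases turn it into prostaglandin H2, and terminal synthases turn that into prostaglandin E2, prostacyclin, prostaglandin D2 or prostaglandin F2 alpha. The products act on G protein-coupled receptors of nearby cells, and 15-hydroxyprostaglandin dehydrogenase inactivates several of them. In the oviduct, prostaglandins are known for acting on muscle contraction, on ciliated cells and on the transport of gametes and embryos.

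None of the 10 genes differed between the groups at an adjusted p under 0.05 (limma over all 19292 genes tested, Benjamini-Hochberg), where 0.0259% of all tested genes did. The number called was 0 higher, where 0.0104% of all tested genes were, and 0 lower, where 0.0156% were. At an unadjusted p under 0.05, 1 of the 10 was higher, Ptger4, where 3.70% of all tested genes were, and 2 were lower, Hpgd and Ptgs1, where 9.87% were. That threshold was passed by 13.6% of tested genes in either direction. The same 3 genes separated the groups without overlap, as did 33.9% of all tested genes (11.9% higher and 21.9% lower), so the 3 of 10 members stood near the background share. The median log2 fold change of the 10 was -0.024, with 5 positive and 5 negative, beside a median of -0.022 over all tested genes. Fold changes here are on the log2 scale of TPM + 1, labelled knockout minus control. TPM is a share of the library corrected for transcript length.

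Several facts of the libraries touch every result. Esr1 was at 83.3 and 77.6 TPM in control mice 2 and 3, against 28.9, 85.0 and 170 TPM in labelled knockout mice 1, 2 and 3. Of the 3, only mouse 1 was below both controls, while mice 2 and 3 went against the label (log2 fold change -0.099, limma adjusted p 0.948), so every direction here is of libraries labelled knockout. The sources used here do not give which exons are floxed, and a value for the whole gene also counts transcript outside them. Stromal genes were present throughout, with Pdgfra at 165 to 298 TPM and Dcn at 6764 to 10110 TPM. The epithelial gene Ovgp1, of oviduct secretory cells, was present as well, at 1522 to 2463 TPM in the controls and mouse 1 and at 10655 and 11258 TPM in mice 2 and 3. Relative depth, estimated from the steps of the low values, was 66.5% of control mouse 2 in control mouse 3 and 48.4%, 82.8% and 67.3% in labelled knockout mice 1, 2 and 3. Genes at 1 TPM or more numbered 19061 and 19432 in the controls and 17148, 18190 and 15841 in mice 1, 2 and 3. A single gene, Rpph1, took 18.6% and 21.3% of all TPM in the controls and 22.3%, 14.3% and 13.1% in mice 1, 2 and 3. As TPM is a share, this touches the values of all other genes. An alternative fit left out Rpph1 and Rn45s and rescaled the rest. In bulk samples, fewer cells of a type and less RNA per cell cannot be told apart.

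**Figure D1:**
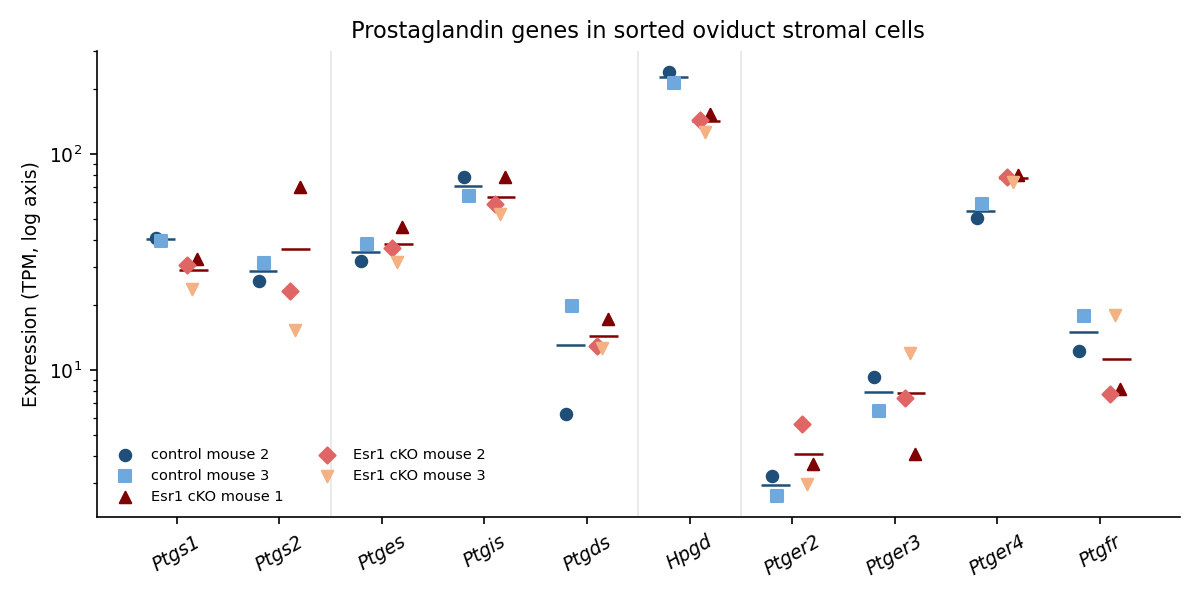
Expression of the 10 genes in each library, in TPM on a log axis; points are libraries and horizontal lines are group means (2 controls, 3 labelled knockout). Hpgd was highest in every library, from 126 to 240 TPM, Ptger2 was lowest, and the groups did not overlap for Ptgs1, Hpgd and Ptger4.

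The levels, which TPM allows to be compared between genes, kept much of their order across the 5 mice. Hpgd ranked first and Ptger2 last of the 10 in every library. Hpgd stood above 95.6% to 98.1% of all listed genes of its library, Ptger4 above 88.5% to 93.8%, and Ptger2 above 35.0% to 48.1%. The ranges of Hpgd and Ptger4 did not overlap, nor did those of Ptgis and Ptges. The other neighbours in the order, from Ptger4 and Ptgis down to Ptger3 and Ptger2, had overlapping ranges. Ptges, Ptgs1 and Ptgs2 lay close together, with means over the 5 libraries of 36.9, 33.5 and 33.2 TPM. Ptgs2 varied most between libraries, with a ratio of 4.63 from highest to lowest, and Ptges least, with 1.45.

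The cyclooxygenases come first in the pathway. Ptgs1 encodes cyclooxygenase 1, the form that many tissues make steadily, and Ptgs2 encodes cyclooxygenase 2, the form induced by cytokines, hormones and injury. The 250 bases before each start site are printed because the 2 genes encode the same reaction and had unlike patterns over the libraries. They are from RefSeq on GRCm38.p6, at chr2:36230176-36230425 on the plus strand for Ptgs1 and at chr1:150099781-150100030 on the plus strand for Ptgs2, read 5′ to 3′, with matches to the motifs searched in capitals:
Ptgs1: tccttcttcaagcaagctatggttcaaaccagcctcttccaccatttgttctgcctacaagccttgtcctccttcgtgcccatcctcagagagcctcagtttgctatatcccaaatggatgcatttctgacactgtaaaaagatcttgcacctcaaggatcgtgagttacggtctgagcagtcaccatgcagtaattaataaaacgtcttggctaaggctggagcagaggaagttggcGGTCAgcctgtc
Ptgs2: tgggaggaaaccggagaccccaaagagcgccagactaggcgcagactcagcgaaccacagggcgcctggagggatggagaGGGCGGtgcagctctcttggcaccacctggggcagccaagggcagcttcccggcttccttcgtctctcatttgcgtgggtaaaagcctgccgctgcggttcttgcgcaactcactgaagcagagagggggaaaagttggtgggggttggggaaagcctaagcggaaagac
The Ptgs1 window had a GC content of 48.0% and the Ptgs2 window one of 61.6%. The motifs searched on both strands were GGTCA, the core of the sites that estrogen receptors bind, the full estrogen response element of 2 such cores inverted around 3 bases, TGANTCA (AP-1), TGACGTCA (CRE), GGGANNTTCC (kappaB), TATAAA and GGGCGG (the GC box). The capitals in Ptgs1 are a GGTCA core from 12 to 8 bases before the start, a motif that 35.2% of 32851 windows of this length held. The capitals in Ptgs2 are a GC box from 170 to 165 bases before the start, which 32.7% of windows held. The full estrogen response element, which 0.06% of windows held, was in the window of none of the 9 members matched in the promoter table.

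Ptgs1 (chr2:36230426-36252272, GENCODE M21 on GRCm38, as are the other gene spans) was at 41.0 and 39.4 TPM in control mice 2 and 3, against 32.6, 30.6 and 23.7 TPM in labelled knockout mice 1, 2 and 3. Both controls were above all 3 libraries labelled knockout, and the lowest of these was mouse 3. This corresponds to a fitted log2 fold change of -0.47 (standard error 0.19, 95% interval -0.92 to -0.015), a fold of 0.722, which did not pass (limma, adjusted p 0.358). It ranged from -0.58 to -0.34 over the alternative settings and passed the adjusted threshold in none of them.

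Ptgs2 (chr1:150100031-150108227) was at 25.8 and 31.3 TPM in the controls, against 70.5, 23.1 and 15.2 TPM in labelled knockout mice 1, 2 and 3. Mouse 1 was above every other library, while mice 2 and 3 lay below both controls, so the libraries labelled knockout lay on both sides of the controls. The log2 fold change of 0.045 had a 95% interval from -1.31 to 1.40 (limma, adjusted p 0.974), which leaves room for changes of more than 1 in either direction. Without mouse 1 the value was -0.57 (limma, adjusted p 0.160), and without control mouse 2 it was -0.089. The TPM of Ptgs1 divided by that of Ptgs2 was 1.59 and 1.26 in the controls, 1.32 and 1.56 in mice 2 and 3, and 0.463 in mouse 1, the only library of the 5 with more Ptgs2 than Ptgs1. Ptgs2 belongs with genes that cell dissociation can induce. The summed TPM of 10 such genes, Fos, Egr1 and Atf3 among them, was 8766 and 10123 in the controls and 9110, 6037 and 4719 in mice 1, 2 and 3. In this sum mouse 1 was between the controls, while its Ptgs2 was above both. Mice 2 and 3 were below both controls in both measures. Single genes of the list differed in mouse 1. Jun (986 TPM) and Ier2 (261 TPM) were above both controls there, Atf3, Egr1 and Hspa1a were below both, and the rest lay between. The part of dissociation in the Ptgs2 values was not tested. Ptgs2os, an antisense transcript beside Ptgs2, was at 0.498 to 2.14 TPM and was also highest in mouse 1. The like-named Ptgs2os2 was at 0.214 to 1.38 TPM and was highest in mouse 2. Both were at low levels.

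The terminal synthases among the 10 were Ptges, Ptgis and Ptgds. Ptges (chr2:30889471-30929863), the inducible prostaglandin E synthase, was at 31.8 and 38.3 TPM in the controls, against 45.9, 36.7 and 31.7 TPM in labelled knockout mice 1, 2 and 3. Mouse 1 was again the highest library and the groups overlapped. For Ptges, the log2 fold change was 0.11 with a 95% interval from -0.39 to 0.60 (limma, adjusted p 0.821), and it was -0.033 without mouse 1 and -0.024 without control mouse 2.

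Ptgis (chr2:167191805-167240604), the prostacyclin synthase, was at 78.4 and 63.6 TPM in the controls, against 77.9, 58.5 and 52.7 TPM in mice 1, 2 and 3. Mouse 1 lay within the controls, and mice 2 and 3 lay below both. Its log2 fold change was -0.18 with a 95% interval from -0.69 to 0.33 (limma, adjusted p 0.702). Per length, Ptgis transcripts were more abundant than those of Ptges in all 5 libraries, by 2.46 and 1.66 times in the controls and by 1.70, 1.59 and 1.66 times in mice 1, 2 and 3.

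Ptgds (chr2:25466709-25470046) encodes lipocalin-type prostaglandin D synthase, which also carries small lipids outside cells. It was at 6.22 and 19.8 TPM in the controls, against 17.2, 13.0 and 12.7 TPM in mice 1, 2 and 3. The distance between the controls was wider than that among the libraries labelled knockout, all 3 of which lay between them. For Ptgds, a log2 fold change of 0.31 had a 95% interval from -0.71 to 1.33 (limma, adjusted p 0.746) and was -0.46 without control mouse 2 and 1.07 without control mouse 3.

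Hpgd (chr8:56294585-56321043), which encodes the dehydrogenase that begins the inactivation of prostaglandins E2 and F2 alpha, had the most abundant transcript of the 10. The 250 bases before its start site are shown because Hpgd had the lowest p of the 10 (RefSeq, GRCm38.p6, chr8:56294302-56294551, plus strand, GC content 56.8%, capitals marking a GC box on the minus strand 50 to 45 bases before the start):
Hpgd: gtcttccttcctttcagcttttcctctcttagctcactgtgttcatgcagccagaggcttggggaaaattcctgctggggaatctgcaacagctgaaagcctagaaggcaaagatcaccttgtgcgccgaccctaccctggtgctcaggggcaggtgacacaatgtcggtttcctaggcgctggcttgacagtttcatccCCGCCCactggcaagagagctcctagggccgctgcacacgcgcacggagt
Its level was 240 and 213 TPM in the controls and 154, 144 and 126 TPM in labelled knockout mice 1, 2 and 3. Both controls were above all 3 libraries labelled knockout, and the gap between the groups was wider than the spread within either. Hpgd averaged 226 ± 19.2 TPM (SD, n = 2) for control mice, against 141 ± 14.2 TPM (SD, n = 3) for mice labelled knockout. On the log2 scale the difference was -0.68 (standard error 0.17, 95% interval -1.08 to -0.27), a fold of 0.626. Over all genes the adjusted p was 0.205 (limma, unadjusted p 0.0054), so the difference did not pass. In the order of unadjusted p, 2.62% of tested genes ranked at or before it.

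The Hpgd value kept its sign over 17 alternative settings, from -0.81 to -0.59, and its call depended on labelled knockout mouse 1. Without mouse 1 the log2 fold change was -0.74 and passed (limma, adjusted p 0.0323), the only one of the 10 to do so, where 7.98% of all tested genes were called, 5.35% higher and 2.63% lower. That fit leaves out the only library labelled knockout whose Esr1 was below both controls. In it, Esr1 had a log2 fold change of 0.57 (limma, adjusted p 0.261). Hpgd also passed with library weights (-0.68, limma adjusted p 0.0457). That setting called 260 genes higher and 396 lower over all genes, against 2 and 3 in the fit reported. Marker sums of some cell types were lower in the same 3 libraries. For 8 mast cell genes the sum was 347 and 403 TPM in the controls and 111 to 130 TPM in the libraries labelled knockout, with 7 of 8 below both controls in all 3. The remaining gene, Kit, was at 22.5 and 16.3 TPM in the controls, against 11.5, 45.9 and 69.5 TPM in mice 1, 2 and 3. The mast cell gene Fcer1a was at 0 in mouse 3, and no other marker of any list was at 0 in a library. For 6 mesothelial genes it was 567 and 671 TPM against 336 to 479 TPM, with 5 of 6 below both controls in all 3 and Wt1 above both. For 8 immune genes it was 4035 and 4374 TPM against 1185 to 3266 TPM, with 7 of 8 below both controls in all 3. Stromal genes also had a lower sum, 20124 and 24928 TPM against 13152 to 17168 TPM, with 5 of 9 below both controls in all 3. Of all tested genes, 21.9% were below both controls in all 3. The sums of 8 endothelial genes (165 to 261 TPM) and 8 smooth muscle genes (433 to 636 TPM) overlapped between the groups. The sum of 10 epithelial genes was 2977 and 3265 TPM in the controls, 2100 TPM in mouse 1 and far higher, 11938 and 13078 TPM, in mice 2 and 3. The part of these cell types in the Hpgd and Ptgs1 values was not tested. Per summed cyclooxygenase TPM, Hpgd was at 3.59 and 3.01 in the controls and at 1.49, 2.68 and 3.24 in mice 1, 2 and 3, so on that ratio the groups overlapped.

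**Figure D2:**
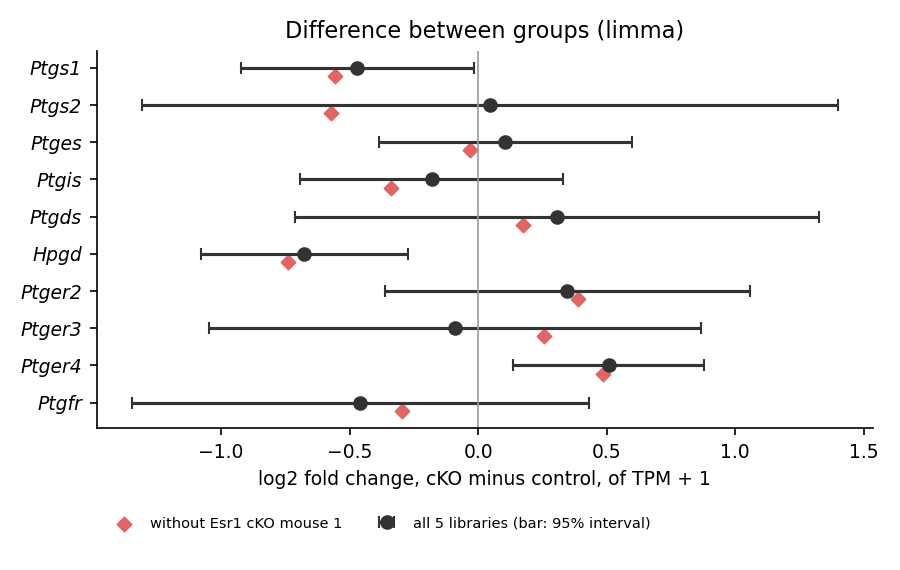
Log2 fold change of TPM + 1 for each of the 10 genes, labelled knockout minus control, with 95% intervals from limma (black, 5 libraries) and the value without labelled knockout mouse 1 (red diamonds). The intervals of Ptgs1, Hpgd and Ptger4 lie on 1 side of 0 before adjustment, and that of Ptgs2 runs from -1.31 to 1.40 while its value without mouse 1 is -0.57.

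Receptors were compared next. Ptger2 and Ptger4 encode the EP2 and EP4 receptors for prostaglandin E2, which raise cyclic AMP. Ptger3 encodes EP3, which mostly lowers cyclic AMP, and Ptgfr encodes the FP receptor for prostaglandin F2 alpha, which raises calcium. Ptger4 was the most abundant of the 4 in each of the 5 libraries, at 14.0 to 25.1 times the TPM of Ptger2, which signals through the same messenger.

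Ptger4 (chr15:5206661-5244187) was the 1 member of the 10 above both controls in all 3 libraries labelled knockout. The 250 bases before its start site are shown for that reason (RefSeq, GRCm38.p6, chr15:5244188-5244437, minus strand, GC content 66.8%, above that of 85.8% of windows):
Ptger4: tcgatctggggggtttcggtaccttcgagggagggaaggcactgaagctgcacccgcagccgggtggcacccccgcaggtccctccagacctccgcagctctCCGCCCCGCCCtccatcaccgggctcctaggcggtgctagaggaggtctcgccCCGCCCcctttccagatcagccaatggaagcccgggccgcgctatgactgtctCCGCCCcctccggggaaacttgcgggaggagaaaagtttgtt
The capitals are 4 GC boxes on the opposite strand, which start 148, 143, 95 and 42 bases before the gene's start, and of which the first and second share 1 base. Ptger4 was at 50.3 and 58.3 TPM in the controls, against 79.9, 78.4 and 74.2 TPM in mice 1, 2 and 3. The libraries labelled knockout lay close together, and all 3 were above both controls. Ptger4 averaged 54.3 ± 5.66 TPM (SD, n = 2) for control mice, against 77.5 ± 2.97 TPM (SD, n = 3) for mice labelled knockout. A fitted log2 fold change of 0.51 (standard error 0.16, 95% interval 0.14 to 0.88), a fold of 1.42, did not pass over all genes (limma, adjusted p 0.271, unadjusted p 0.0145). It stayed positive over 17 alternatives, from 0.38 to 0.61, and passed 0.05 in none. The annotated exons of Ptger4 share 82 bases with Ttc33 and 1015 bases with a processed pseudogene, Gm15937, both on the opposite strand, and the sources do not state that strand was used in counting, so reads there cannot be told apart. Exons of Ptgs1, Ptgis, Ptger2 and Ptgfr also share bases with transcripts on the opposite strand. With 2 and 3 libraries there are 10 assignments of labels, and the two-sided exact permutation p was 0.1, the smallest they allow, for each of Ptger4, Hpgd and Ptgs1.

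Ptger2 (chr14:44988195-45003820) was at 3.23 and 2.60 TPM in the controls, against 3.67, 5.62 and 2.95 TPM in mice 1, 2 and 3. It was highest in mouse 2, and the groups overlapped. Ptger2 had a log2 fold change of 0.35 with a 95% interval from -0.36 to 1.06 (limma, adjusted p 0.597). Ptger3 (chr3:157566892-157645888) was at 9.29 and 6.46 TPM in the controls, against 4.08, 7.42 and 12.0 TPM in mice 1, 2 and 3. The libraries labelled knockout held both the lowest and the highest Ptger3 value, so they spanned the controls. Ptger3 had a log2 fold change of -0.092 with a 95% interval from -1.05 to 0.87 (limma, adjusted p 0.923), and it was 0.25 without mouse 1 and 0.14 without control mouse 2. Ptgfr (chr3:151796502-151837630) was at 12.3 and 17.7 TPM in the controls, against 8.14, 7.74 and 17.8 TPM in mice 1, 2 and 3. Mice 1 and 2 were below both controls, while mouse 3 was level with control mouse 3. Its log2 fold change was -0.46 with a 95% interval from -1.35 to 0.43 (limma, adjusted p 0.577). At these low levels counting error adds to the spread, and the number of reads behind a value is not known.

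Beside the 4 receptors among the members, 5 further prostanoid receptors were in the table. Ptger1, which encodes the EP1 receptor for prostaglandin E2, was at 11.6 and 8.65 TPM in the controls, against 4.49, 4.12 and 3.57 TPM in mice 1, 2 and 3. Mice 1 to 3 all lay under both controls, the opposite side from Ptger4. Its log2 fold change of -1.13 (standard error 0.24) did not pass (limma, adjusted p 0.185), and it passed without mouse 1 (-1.19, limma adjusted p 0.0411) and with library weights (-1.13, limma adjusted p 0.0427). Over all genes, 502 were called lower without mouse 1 and 396 with library weights. Ptgir, the prostacyclin receptor, was at 16.7 to 23.9 TPM and its groups overlapped. Tbxa2r, the thromboxane receptor, was at 4.98 to 9.66 TPM, and the prostaglandin D2 receptors Ptgdr and Ptgdr2 were at 0.240 to 4.58 TPM. Ptgfrn, which encodes a protein that hinders prostaglandin F2 alpha from binding its receptor, was at 174 and 134 TPM in the controls, against 121, 119 and 112 TPM in mice 1, 2 and 3, under both controls in each (log2 fold change -0.38, limma adjusted p 0.389). Ptger4 made up 41.9% and 45.4% of the summed TPM of the 9 receptors in the controls and 63.1%, 60.0% and 52.0% in mice 1, 2 and 3. On that share the groups did not overlap either, and mouse 3 was the nearest to the controls. The Ptger4 share is a description of the same Ptger4 values and was not tested.

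**Figure D3:**
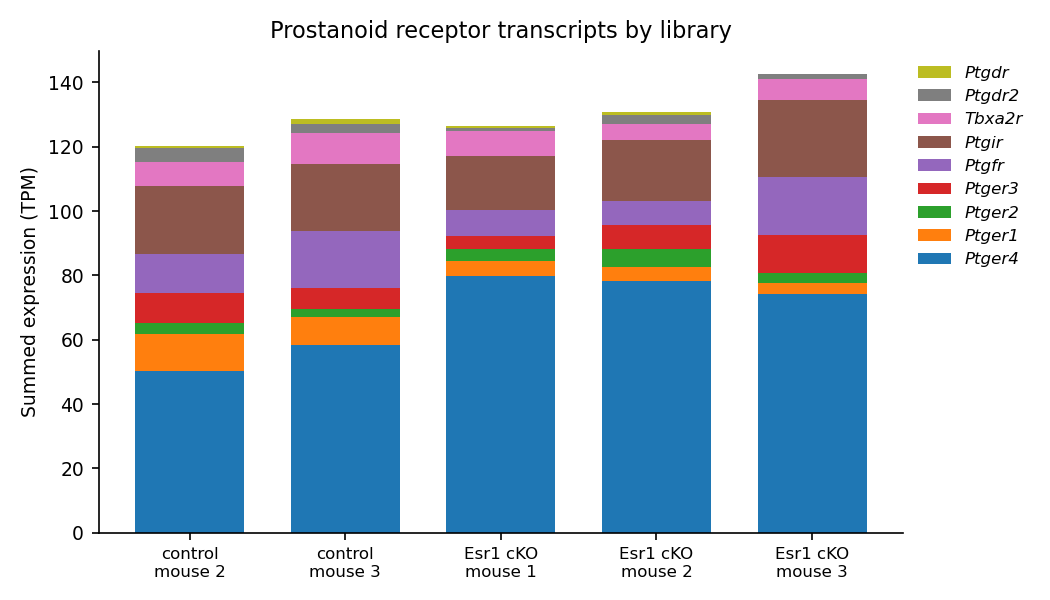
Summed TPM of the 9 prostanoid receptor genes in each library, stacked by gene, on a linear axis from 0. Ptger4, at the base of each bar, runs from 50.3 TPM in control mouse 2 to 79.9 TPM in labelled knockout mouse 1.

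The rest of the pathway was read from lists of 60 further gene names, for the release of arachidonic acid, other synthases, other receptors, transport and breakdown, the lipoxygenase branch, and the G protein, cyclic AMP and calcium coupling of the receptors. Of these, 58 were in the table and 54 passed the filter. The names not found, Fam213b and Ptgr3, are other names of Prxl2b and Zadh2, which were in the table. The count past the adjusted threshold was 0 of 54 (limma), with 7 higher and 9 lower at an unadjusted p under 0.05, where 3.70% and 9.87% of all tested genes were. The median log2 fold change was -0.14, with 24 positive and 30 negative. The groups did not overlap for 22 of 54, since 8 were above and 14 were under both controls in each of the 3, where 11.9% and 21.9% of all tested genes were so. Several of these calls turned on labelled knockout mouse 1, without which 7.98% of all tested genes passed, and values without it are given where they did. Library weights, under which some also passed, called 260 genes higher and 396 lower of all 19292 tested.

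For the release of arachidonic acid, Pla2g4a, the cytosolic phospholipase A2, was at 36.4 and 35.6 TPM in the controls, against 54.5, 57.2 and 65.9 TPM in mice 1, 2 and 3. The controls were almost level, and all 3 libraries labelled knockout were above them. On the log2 scale the difference was 0.70 (standard error 0.16, limma adjusted p 0.197), and it passed with library weights (0.69, limma adjusted p 0.0423) and without mouse 1 (0.75, limma adjusted p 0.0303). Anxa1, the annexin that restrains phospholipase A2, was at 396 and 397 TPM in the controls, against 342, 336 and 290 TPM in mice 1, 2 and 3, all below both controls (log2 fold change -0.30, limma adjusted p 0.457).

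Among the other synthases, Hpgds, the hematopoietic prostaglandin D synthase, was at 34.8 and 21.3 TPM in the controls, at 21.1 TPM in mouse 1 and at 121 and 189 TPM in mice 2 and 3. Mouse 1 was below both controls and mice 2 and 3 far above them, so the groups overlapped (log2 fold change 1.50, standard error 0.84, limma adjusted p 0.453). Without mouse 1 the Hpgds value was 2.43 and passed (limma, adjusted p 0.0161). The summed TPM of 10 epithelial genes had the same low and high libraries, at 2977 and 3265 in the controls, 2100 in mouse 1 and 11938 and 13078 in mice 2 and 3. Most of this sum was Ovgp1, at 2273 and 2463 TPM in the controls, 1522 in mouse 1 and 10655 and 11258 in mice 2 and 3. Not every gene of the list had that order. Krt18 and Pax8 were lowest in control mouse 2, and Cldn4 was highest in control mouse 3 and lowest in mouse 3. Each of the 10 epithelial genes had overlapping groups. Gstm2, a glutathione transferase with prostaglandin E synthase activity, was at 613 and 662 TPM in the controls, against 905, 1659 and 1579 TPM in mice 1, 2 and 3. It was above both controls in all 3, and least so in mouse 1 (log2 fold change 1.06, limma adjusted p 0.239). Gstm2 passed with library weights (1.26, limma adjusted p 0.0329) and without mouse 1 (1.34, limma adjusted p 0.0140). The part of epithelial cells in the Hpgds and Gstm2 values was not tested.

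Tbxas1, the thromboxane synthase, was at 14.1 and 14.1 TPM in the controls, against 11.7, 6.67 and 4.61 TPM in mice 1, 2 and 3, below both controls in all 3 (log2 fold change -0.88, limma adjusted p 0.351), and it passed without mouse 1 (limma, adjusted p 0.0351). Ptges3 (176 to 261 TPM), Cbr1 (83.1 to 134 TPM) and Akr1b8 (27.6 to 47.3 TPM) were the other synthases or reductases with a mean of at least 20 TPM, and their groups overlapped. Akr1b3, a prostaglandin F synthase, was listed at 0 in 4 of the 5 libraries. This gene is widely expressed in tissues and the annotation behind the table is not given in the sources used here, so whether the zeros reflect its transcript or the annotation was not tested.

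In transport and breakdown, Slco2a1, which carries prostaglandins into cells for inactivation, was at 49.2 and 42.7 TPM in the controls, against 29.2, 63.5 and 55.8 TPM in mice 1, 2 and 3, on both sides of the controls. Zadh2, a 15-oxo-prostaglandin reductase that acts after Hpgd, was at 30.1 and 33.2 TPM in the controls, against 47.7, 47.0 and 49.9 TPM in mice 1, 2 and 3. All 3 were above both controls, the opposite side from Hpgd (log2 fold change 0.59, standard error 0.15, limma adjusted p 0.214), and it passed without mouse 1 (0.60, limma adjusted p 0.0453). Ptgr2, which acts at the same step, was at 20.3 to 37.7 TPM with overlapping groups (log2 fold change 0.49, limma adjusted p 0.412), and it passed without mouse 1 (0.68, limma adjusted p 0.0486). Akr1c14, a hydroxysteroid dehydrogenase, was at 259 and 154 TPM in the controls, against 29.4, 114 and 102 TPM in mice 1, 2 and 3, a log2 fold change of -1.50 (limma, adjusted p 0.343). It lay below both controls in all 3, although the controls also differed widely. Without mouse 1 the Akr1c14 value was -0.88 and did not pass (limma, adjusted p 0.0785), and it ranged from -1.87 to -0.88 as single libraries were left out.

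The lipoxygenase branch uses the same arachidonic acid to make leukotrienes and other products. Of its 9 genes, 3 lay under both controls in each of the 3 libraries labelled knockout and 0 above, where 21.9% and 11.9% of all tested genes were so. The count that passed was 0 (limma, lowest adjusted p 0.237), with 0 higher and 3 lower at an unadjusted p under 0.05, where 3.70% and 9.87% of all tested genes were. The 3 under both controls were Alox5, Alox5ap and Ltc4s, which encode 5-lipoxygenase, its activating protein and leukotriene C4 synthase. Alox5ap was at 65.9 and 87.1 TPM in the controls, against 51.1, 46.7 and 61.2 TPM in mice 1, 2 and 3. Ltc4s was at 16.0 and 21.6 TPM in the controls, against 9.20, 12.8 and 5.37 TPM in mice 1, 2 and 3. These genes are known from mast cells and macrophages. The sums of mast cell genes and of immune genes, given above for Hpgd, were lower in the same 3 libraries. Among these 3, mouse 3 had the highest Alox5ap and the lowest Ltc4s, with the lowest immune sum and the highest mast cell sum. The part of these cells in the lipoxygenase values was not tested. Alox15, which had the highest mean of the 9, was at 152 and 158 TPM in the controls, 126 TPM in mouse 1 and 258 and 283 TPM in mice 2 and 3, and passed without mouse 1 (0.80, limma adjusted p 0.0240). Its low and high libraries were those of Hpgds and of the epithelial sum, and the part of epithelial cells in it was not tested.

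**Figure D4:**
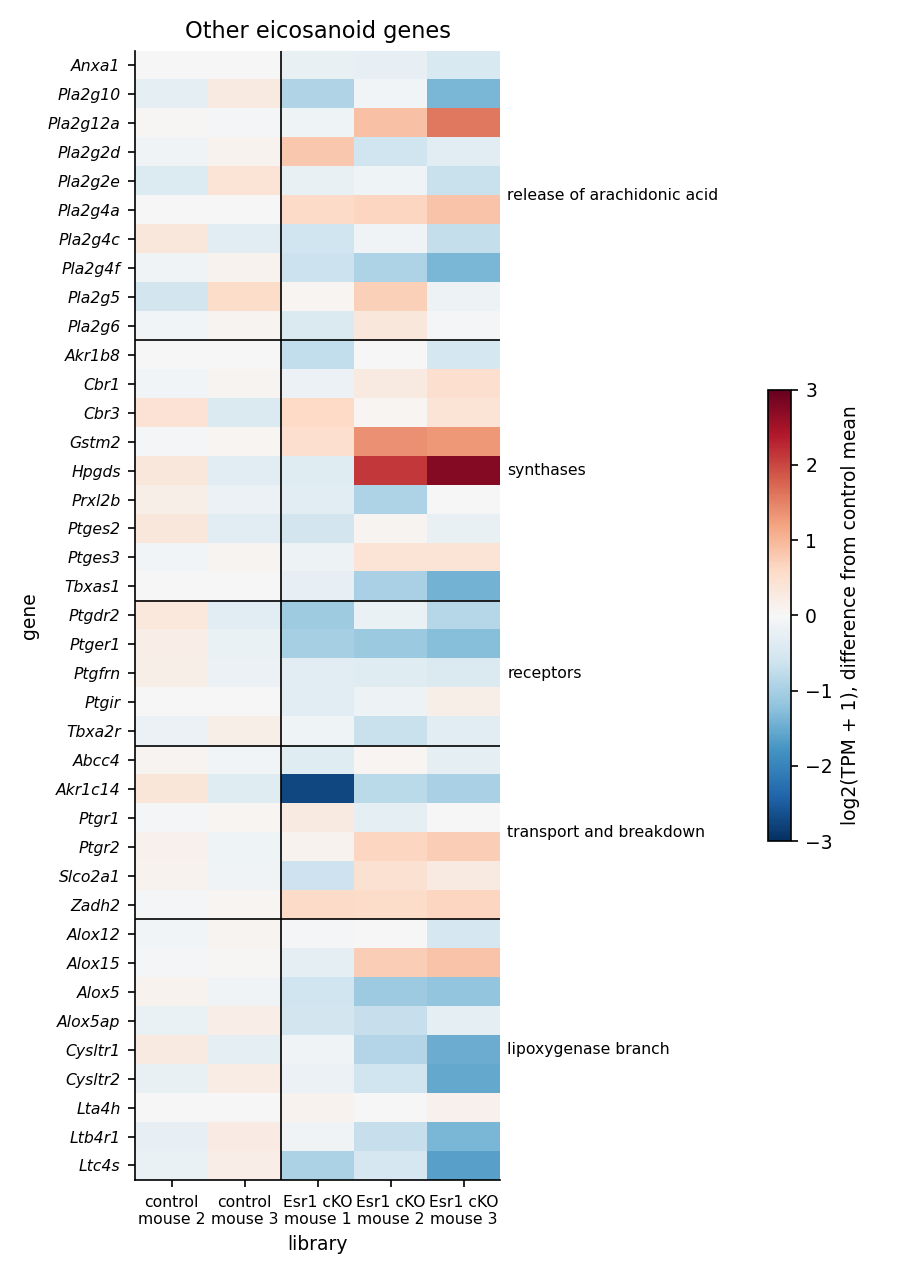
Each tested gene of the other eicosanoid lists in each library, as the difference in log2(TPM + 1) from the mean of the 2 controls (red higher, blue lower, scale from -3 to 3). Pla2g4a and Zadh2 are higher and Ptger1 and Tbxas1 lower in all 3 libraries labelled knockout, while Hpgds is high in mice 2 and 3 only of the 5 libraries.

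Of 15 genes that couple the receptors to cyclic AMP or calcium, 5 lay above and 5 lay under both controls in each of the 3 libraries labelled knockout, where 11.9% and 21.9% of all tested genes were so. The count that passed was 0 (limma, lowest adjusted p 0.193), with 4 higher and 2 lower at an unadjusted p under 0.05, where 3.70% and 9.87% of all tested genes were. Gnaq, the G protein subunit through which FP and EP1 act, was at 29.2 and 28.2 TPM in the controls, against 42.6, 51.3 and 52.0 TPM in mice 1, 2 and 3, a difference of 0.73 on the log2 scale (standard error 0.17) that did not pass (limma, adjusted p 0.193). Plcb4, a phospholipase C beta, was at 12.4 and 13.2 TPM in the controls, against 19.2, 24.9 and 22.6 TPM in mice 1, 2 and 3. Adcy7, an adenylyl cyclase, was at 22.1 and 19.1 TPM in the controls, against 31.9, 38.3 and 30.1 TPM in mice 1, 2 and 3. These 3 genes were above both controls in all 3 libraries labelled knockout, and each passed with library weights (limma, adjusted p 0.0325, 0.0419 and 0.0491). Gnaq and Plcb4 also passed without mouse 1 (limma, adjusted p 0.0236 and 0.0335), as did Gna11, at 44.1 to 68.3 TPM with overlapping groups (0.54, limma adjusted p 0.0472). Below both controls were Crem, Pde4b, Pde4d, Adcy3 and Adcy6, of which the cyclic AMP phosphodiesterase Pde4b was at 12.4 and 17.8 TPM in the controls, against 10.2, 9.17 and 5.50 TPM in mice 1, 2 and 3, a log2 fold change of -0.81 (limma, adjusted p 0.339). Crem and Pde4b are themselves induced by cyclic AMP and by dissociation. The sum of dissociation genes was below both controls in mice 2 and 3 but not in mouse 1. Of the 10 genes in that sum, Atf3, Egr1 and Hspa1a separated the groups on the low side, like Crem and Pde4b. The other dissociation genes had overlapping groups. The part of dissociation or of cyclic AMP in the Crem and Pde4b values was not tested. Gnas, which couples EP2 and EP4 to adenylyl cyclase, was at 225 to 307 TPM and Gnai2, of the inhibitory class, at 321 to 397 TPM, both with overlapping groups. Prkaca and Prkar1a, a catalytic and a regulatory subunit of the cyclic AMP-dependent kinase, were the other genes of the 5 above both controls, at 57.9 and 60.1 TPM against 69.1 to 93.6 TPM for Prkaca and at 125 and 127 TPM against 140 to 174 TPM for Prkar1a.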

How the data were processed

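RNA from YFP-positive cells was made into libraries with a low-input SMARTer mRNA kit, per the labels' protocols. The deposited values are TPM per gene, scaled by the authors to the same total in each library. STAR was the aligner per the name of the authors' table, and the build was mm10 per the submitters' processing notes. The counter, the annotation and the filters are not given in the sources used here.

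The fit used limma 3.58.1 under R 4.3.3, on TPM after adding 1 and taking log2, with an empirical Bayes variance trend and genotype alone in the model. A gene entered the fit if 2 or more libraries reached a TPM of 1. Benjamini-Hochberg adjustment covered every gene fitted, at a threshold of 0.05. Tests were two-sided, and 95% intervals are unadjusted. An exact permutation test was run for single genes. The scripts were tested on simulated data.

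Groups and mouse numbers came from the labels. TPM keeps no total depth, so relative depth was estimated from the ratios of low values (Python 3.11.15, numpy 2.4.6, pandas 2.3.3). It limits the precision of low values. Promoter windows came from RefSeq on GRCm38.p6, exon overlaps from GENCODE M21, and 9 of 10 members were matched in the promoter table. The GC box was added to the motifs later.

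Members and lists were chosen with earlier results of these data known. Named genes are the 10 members, Esr1, and pathway genes past the threshold, without overlap at a mean TPM of at least 5, or with a mean TPM of at least 20, most of which are given with values. Alox5, Akr1b3, Ptgs2os, Ptgs2os2, the low receptors, and the Ptgs2 promoter were added after their values were seen. Alternatives were other pseudocounts (0.1 and 5), filters, scalings, variance models, library weights, a threshold of 0.1, the mouse number as a block, and leaving out each library.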

Additional observations from a re-analysis of the deposited data

How the results depend on the processing

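The count of the 10 genes called lower was 0, and 1 (Hpgd) with library weights, with the replicate block and without labelled knockout mouse 1, so that it ranged from 0 to 1 as single libraries were left out. The count of the 10 called higher was 0 throughout. Over all genes, 396 were called lower with library weights, 693 with the block and 502 without mouse 1, against 3 in the fit reported. Members without overlap numbered 3, 4 with quantile normalization, and from 3 to 5 when 1 library was left out. The share of all tested genes without overlap was 33.9% in the fit reported and was not computed under those settings. Groups separate more easily with fewer libraries, so a count of 5 cannot be read as a result about the members. Akr1c14 passed with the replicate block only (-0.88, limma adjusted p 0.0267). Mouse 1 has no control of its number, so the block gives the same log2 fold changes as leaving out mouse 1. Calls under these settings, that of Hpgd among them, are thus not independent of each other.

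Over all genes, 2 were called higher and 3 lower. Higher calls numbered 0 with a pseudocount of 0.1, a mean TPM of at least 5, quantile normalization, median-of-ratios scaling and eBayes without trend (the number at an unadjusted p under 0.05 was 2617 in the fit reported), 1 with no filter and with robust eBayes, 260 with library weights, 1165 with the replicate block, 14 at a threshold of 0.1, and 0 to 1022 when 1 library was left out. Lower calls numbered 0 with a pseudocount of 0.1 or the filter on mean TPM, 5 without Rpph1 and Rn45s, 396 with library weights, 693 with the block, 22 at a threshold of 0.1, and 0 to 502 when 1 library was left out. The cause was not tested. A fit without a control mouse assumes that the remaining control varies like the other libraries.

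Signs of these uncalled genes reversed as follows. Ptgs2 was -0.046 with quantile normalization, -0.014 without Rpph1 and Rn45s, -0.25 with library weights, -0.57 with the replicate block, and -0.57 to 0.50 when 1 library was left out. Ptges was -0.033 with the block and -0.033 to 0.24 by library left out. Ptger3 was 0.010 with library weights, 0.25 with the block and -0.42 to 0.25 by library left out. Ptgds ranged from -0.46 to 1.07 by library left out, Creb1 from -0.0020 to 0.30, Slco2a1 from -0.18 to 0.37 (-0.090 with quantile normalization, -0.025 without Rpph1 and Rn45s) and Ptgir from -0.23 to 0.020 (0.020 with the block). Lta4h was -0.046 and Gnai2 -0.057 with quantile normalization. Esr1 (-0.099) was 0.15 with library weights, 0.57 with the block and -0.68 to 0.57 by library left out. Among the alternative values of single genes other than Esr1, 673 kept their sign and side of the threshold, 33 came to pass it and 24 reversed. The block and the fit without mouse 1 are both counted there, although their log2 fold changes are the same.

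Only mice 2 and 3 have partners in the paired fit, and deviations from the group means correlated at -0.060 and -0.072. With 2 controls, the deviations of the controls mirror each other, so both values rest on the same control difference. They cannot tell whether libraries of the same number share more than that number. The number of reads behind each value is not known, so the limit that depth sets was not compared between genes.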
